A study of Mus musculus with 3 samples.

Results

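The nuclei described here carried transcripts of 1 or more of Tfap2a, Tfap2b, Mab21l2 and Ano1 in the presence of Meis1, and they numbered 88 of 9027 nuclei within the quality limits. They were chosen by the UMI counts of 7 genes. An AP-2 gene (Tfap2a or Tfap2b) was found in 78 of them, and an AP-2 gene, Mab21l2 and Ano1 together in 21. The mice were C57BL/6 and uninjured, and a retrograde label placed in the lumbar cord marked brain neurons with an axon reaching that level. Fluorescent tissue was dissected from sagittal brain slices and nuclei were profiled on the 10x Genomics platform, which counts each captured RNA molecule by a unique molecular identifier (UMI). There was 1 group with 3 libraries labelled as biological replicates; no tracer, age or number of animals per library is stated in the labels. The quality limits were 1000 genes or more and 5% or less of mitochondrial UMIs. A member held at least 2 UMIs and 150 CPM (UMIs of a gene per 1000000 UMIs) of Tfap2a, Tfap2b, Mab21l2 and Ano1 together, at least 100 CPM of Meis1 and under 300 CPM of Tox. The comparison group was the other 2933 nuclei with at least 200 CPM of Meis1 and Meis2 together and under 300 CPM of Tox, from the same libraries and the same treatment. It included 65 nuclei that met the limit on the 4 selecting genes but had Meis1 under its limit.

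Tfap2a and Tfap2b encode AP-2 transcription factors, which bind GC-rich DNA as dimers and act in neural crest and in several neuron populations of the hindbrain and spinal cord. Mab21l2 encodes a nuclear protein of the MAB21 family that is needed for eye and body wall development, and Ano1 encodes a calcium-activated chloride channel. Meis1 and Meis2 are homeodomain factors of the TALE class that act with PBX and Hox proteins in hindbrain patterning.

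Members made up 0.784% of nuclei in replicate 1 (21 of 2679; exact 95% binomial interval 0.486 to 1.20), 0.975% in replicate 2 (27 of 2769; 0.644 to 1.42) and 1.12% in replicate 3 (40 of 3579; 0.80 to 1.52). The mean share was 0.959% ± 0.167 (SD, n = 3 libraries), and the 3 counting intervals overlapped. Intervals cover counting error only, and the dissection and the sort can set such shares. The median member held 8956, 14959 and 10869 UMIs in replicates 1, 2 and 3, against 7040, 14862 and 10728 in the comparison nuclei. Scrublet, a caller of droplets with more than 1 nucleus, marked none of the 88 members. The libraries shared 10, 2 and 8 barcodes between replicates 1 and 2, 1 and 3, and 2 and 3, none of them a member. UMIs summed over members came to 200582, 437617 and 467286, and over comparison nuclei to 8225517, 13918834 and 13444558. The labels call the libraries biological replicates without naming the animals behind them, so differences between these libraries may be technical in part. The edgeR fit described below left 2 residual degrees of freedom. Its p-values are therefore no measure of each gene's own spread between libraries. Mcub, at 4.99, 4.57 and 51.4 CPM in members of replicates 1, 2 and 3, still had an edgeR adjusted p of 2.36e-08.

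The genes of the rule chose the nuclei, so their levels are a description without a test. Tfap2b was the most widely detected of the 4 selecting genes, with a UMI in 73 of 88 members (83.0%). Its level was 194, 219 and 161 CPM in the members of replicates 1, 2 and 3 and 5.59, 5.53 and 6.99 CPM in the comparison nuclei. Tfap2a, the gene that leads the working name of these nuclei, had a UMI in only 31 members (35.2%), at 24.9, 50.3 and 32.1 CPM. Mab21l2 was detected in 45 members at 79.8, 66.3 and 64.2 CPM, and Ano1 in 42 members at 59.8, 59.4 and 96.3 CPM. Each of the 4 genes was higher in the members of each library than in any comparison sum. In the high-Tox nuclei, which were kept out of both groups, Tfap2b had a UMI in 2.52%, Mab21l2 in 1.78%, Ano1 in 1.19% and Tfap2a in 0.261% of 4207 nuclei, whose median depth was 19013 UMIs against 10943 in members. Meis1 was present in all 88 members by rule, and Meis2, which the rule did not require of members, in 84.

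**Figure D1:**
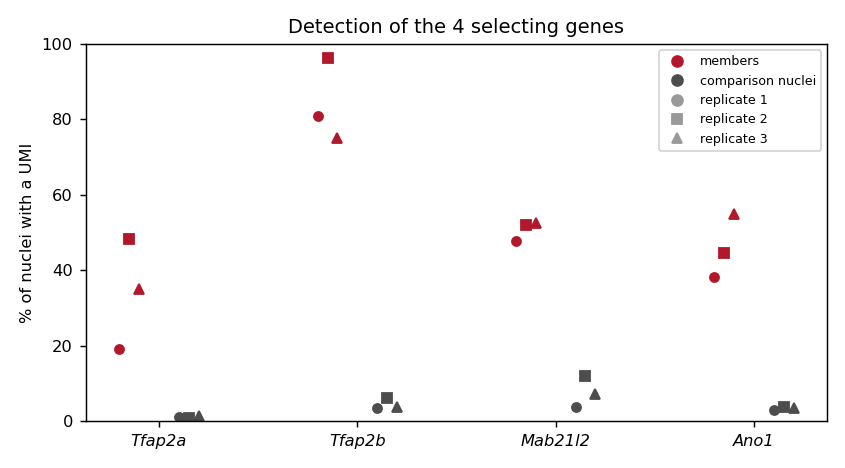
Share of nuclei with at least 1 UMI of each selecting gene (y axis, percent) in members and comparison nuclei, with 1 point per library. Tfap2b was found in the most members (83.0% over all libraries), and the rule fixed the separation from the comparison nuclei.

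The selecting genes occurred together, in part by rule. Both an AP-2 gene and 1 or both of Mab21l2 and Ano1 were found in 54 members, 24 held AP-2 UMIs alone, and 10 held no AP-2 UMI. Among the 1116 nuclei that met the Meis1, Tox and quality limits, where no selecting gene was required, Ano1 had a UMI in 34.7% of the 95 nuclei with Tfap2b and in 3.43% of the 1021 without. Mab21l2 was found in 43.2% of nuclei with Tfap2b and 9.30% of those without, and Tfap2b in 69.2% of nuclei with Tfap2a and 6.31% of those without. Median depth was 10798 UMIs with Tfap2b and 9174 without, and the part of this gap in the shares was not tested. At the edge of the rule, the 5 lowest members held 155 to 170 CPM of the selecting genes, and the 5 highest nuclei with at least 2 UMIs below the limit held 117 to 149 CPM. A further 31 nuclei lay above 150 CPM with a single UMI and were no members, and 22 members held exactly 2 UMIs.

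In the mm10 annotation (GENCODE M21), Tfap2b lies on chromosome 1 at 19208914 to 19238576 on the plus strand, Tfap2a on chromosome 13 at 40715302 to 40738376 on the minus strand and Ano1 on chromosome 7 at 144588549 to 144751974 on the minus strand. Mab21l2, on chromosome 3 at 86545581 to 86548629 on the minus strand, lies inside Lrba, a long gene on the plus strand that spans 86224680 to 86782692. Lrba itself stood at 449, 361 and 484 CPM in members and 269, 194 and 246 CPM in comparison nuclei, higher in every library (log2 fold change 0.86, below the size required for a call). No source used here says whether counting used strand, so reads of Lrba and Mab21l2 may not be fully separated. Without Mab21l2 in the selection the mean share was 0.841%.

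Other genes were tested on UMIs summed per library and group with the quasi-likelihood test of edgeR, with the library as a block. A call required an adjusted p (Benjamini-Hochberg, over 14557 genes) under 0.05 together with a log2 fold change of 1 or more in size. The filter on low counts asked for a CPM limit in 3 of the 6 sums, so the sums of 1 group could pass a gene. Counts and medians of the short lists below thus include genes tested through the group where they were high. In members 363 genes were called higher (2.49% of those tested) and 381 lower (2.62%), 5.11% in either direction. These shares are the background of every list count below. The members of all 3 libraries lay above all 3 comparison sums for 9.5% of tested genes and below them for 12.1%. The libraries did not overlap for 310 of the 363 genes called higher and 355 of the 381 called lower. Against comparison nuclei with 0 selecting UMIs, 383 genes were called higher and 373 lower, and several fold changes below were over 1.5 times larger, with log2 values of 6.84 for Col5a2, 5.88 for Daam2, 5.78 for Hk2, 5.52 for Sall1, 5.86 for Pou4f2, 4.67 for Lhx5 and 4.42 for Lhx1. Egfr, Epha3, Adra1b and Gfra2, described below, were not called in that comparison.

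Some relatives of the selecting genes were higher in members. Of 13 tested AP-2, MAB21 and TALE relatives and AP-2 cofactors, 3 were called higher and 0 lower by edgeR (4 and 2 at an unadjusted p under 0.05, and 2 and 0 by DESeq2), and the list median was 0.34 on the log2 scale against -0.04 over all tested genes. Of all tested genes edgeR called 2.49% higher and 2.62% lower. Tfap2d, a further AP-2 gene that lies 42567 bases upstream of Tfap2b on the same strand of chromosome 1, stood at 19.9, 20.6 and 6.42 CPM in members and 1.95, 0.287 and 0.595 CPM in comparison nuclei. Every member sum lay above every comparison sum (log2 fold change 4.26, SE 0.77, edgeR adjusted p 1.55e-06). Tfap2d passed the filter on low counts through its member sums alone. Tfap2e, another AP-2 gene, stood at 4.99, 25.1 and 8.56 CPM against 1.09, 1.87 and 3.12 CPM (2.64, SE 0.67, edgeR adjusted p 0.00159). Meis3, a TALE factor like Meis1, stood at 29.9, 34.3 and 32.1 CPM against 12.3, 13.9 and 14.3 CPM (1.21, edgeR adjusted p 0.00959). The groups did not overlap for these 3 genes. With replicate 2 left out the calls were lost, with edgeR adjusted p 0.0643 for Tfap2d, 0.673 for Tfap2e and 0.19 for Meis3. Meis3 was not called without replicate 1 or 3 either, with edgeR adjusted p 0.0514 and 0.111. Pbx3, which encodes a TALE partner of MEIS proteins, was not called, with a log2 fold change of -0.64.

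The AP-2 consensus was found in the promoter windows of 1 of the 4 selecting genes and of 3 of the 10 named higher genes that matched a window. Windows ran from 250 bases before to 50 after the first start listed for each gene (RefSeq, GRCm38.p6). They were searched on both strands for GCCNNNGGC, where N is any base, and the motif reads the same on both strands. For Ano1 this start lies inside the GENCODE M21 span given above, which on the minus strand begins at 144751974. The Ano1 site is therefore upstream of the listed start but inside that span. Sites upstream of the start are shown for the chloride channel genes Ano1 and Cftr and for the hexokinase gene Hk2, because Ano1 chose the nuclei and Cftr and Hk2 were among the most increased genes, with the motif in capitals.
Ano1, chr7:144738574-144738615, minus strand, motif from 22 bases before the start: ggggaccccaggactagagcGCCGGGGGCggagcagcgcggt
Cftr, chr6:18170445-18170493, plus strand, motif from 222 bases before the start: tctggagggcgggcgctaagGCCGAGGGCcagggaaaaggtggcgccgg
Hk2, chr6:82774618-82774666, minus strand, motif from 192 bases before the start: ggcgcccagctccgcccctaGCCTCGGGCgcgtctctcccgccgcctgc
Uncx, the other named higher gene with the motif, held 2 overlapping matches. The windows of Sall1, Lhx1, Lhx1os, Pyy, Daam2, Arhgap6 and Mcub held no match to these letters, and neither did those of Tfap2a, Tfap2b, Tfap2d, Mab21l2 and Pou4f2. The motif was in 16.5% of all 27025 promoter windows, in 24.4% of the 10800 matched windows of tested genes, in 54 of 254 matched windows of genes called higher (21.3%) and in 65 of 263 of genes called lower (24.7%). Windows matched only 254 of 363 genes called higher, so a comparison over that set is void. A match is a description of letters and not a binding site.

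Transcription factors of dorsal and ventral hindbrain neurons differed between members and comparison nuclei in unlike directions. Of 9 tested dorsal factors, 3 were called higher (Pou4f2, Lhx5 and Lhx1) and 1 lower (Maf), with a list median of 1.07. Of 12 tested ventral factors, 1 was called higher and 6 lower, with a median of -1.68. DESeq2 called 3 higher and 0 lower among the dorsal and 1 and 1 among the ventral factors. Calls over all tested genes were 2.49% higher and 2.62% lower. Of 29 listed dorsal factors only 9 passed the filter on low counts. Lhx5 and Pou4f2, at 1.34 CPM or less in every comparison sum, passed through the member sums alone. The dorsal count and median are therefore a description. The lists were chosen with earlier results of these data known.

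Lhx1, a LIM homeodomain factor of several hindbrain and spinal interneuron classes, stood at 54.8, 25.1 and 32.1 CPM in members and 3.04, 2.01 and 3.64 CPM in comparison nuclei. The groups did not overlap (log2 fold change 3.57, SE 0.48, edgeR adjusted p 1.05e-11), and 28 of 88 members held a UMI against 2.56% of comparison nuclei. Lhx1os, the noncoding gene beside Lhx1 on the opposite strand, was higher as well, at 29.9, 59.4 and 44.9 CPM against 1.82, 2.3 and 1.64 CPM (4.53, SE 0.48). Lhx5, the closest relative of Lhx1, stood at 15.0, 9.14 and 8.56 CPM against 0.243, 0.575 and 1.34 CPM (3.67, edgeR adjusted p 0.000843). Pou4f2, a POU domain factor known from retinal ganglion cells, stood at 9.97, 18.3 and 15.0 CPM against 0.486, 0.144 and 0.893 CPM (4.88, SE 0.82, edgeR adjusted p 1.23e-07). All member sums lay above all comparison sums for both, although the counts were small, with 11 UMIs of Lhx5 and 17 of Pou4f2 over all members. Leaving out replicate 2 ended the call for Lhx5 (edgeR adjusted p 0.0643).

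Uncx and Sall1 are further transcription factors among the most increased genes. Uncx, a paired-type homeodomain factor, stood at 15.0, 54.8 and 34.2 CPM against 2.55, 2.87 and 3.27 CPM (3.57, SE 0.48, edgeR adjusted p 6.67e-12). Sall1, a zinc finger factor, stood at 15.0, 43.4 and 34.2 CPM against 1.22, 1.58 and 1.19 CPM (4.54, SE 0.56, edgeR adjusted p 3.25e-14). Replicate 1 had the lowest member value of both, still above every comparison sum.

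Among ventral factors, those of V2a neurons, a glutamatergic hindbrain and spinal class that takes part in locomotion, were lower. Lhx4 had 3 UMIs in all members and stood at 23.8, 23.9 and 30.0 CPM in comparison nuclei, a pooled ratio of 0.104 (counting interval 0.0213 to 0.303). Lhx3 had 3 UMIs (pooled ratio 0.142, 0.0293 to 0.418). Sox14 had no member UMI and was at least 3.47-fold lower, against a floor of 3 counts over the group. At least 2 UMIs of the V2a marker genes were found in 588 of 2933 comparison nuclei (20.0%) and in 1 of 88 members (1.14%). Shox2 and Onecut1 were also called lower, with log2 fold changes of -2.56 and -1.29, as were Maf (2 UMIs, pooled ratio 0.174, 0.0209 to 0.631) and, among 4 midbrain and isthmus factors, Nr4a2 (2 UMIs, 0.109, 0.0132 to 0.395). In a comparison with nuclei holding no UMI of the V2a marker genes, Shox2, Onecut1 and Maf were not called (edgeR adjusted p 0.234, 0.0961 and 0.0769). Without replicate 2, edgeR adjusted p was 0.112 for Shox2, 0.231 for Onecut1, 0.554 for Maf, 0.188 for Nr4a2 and 0.139 for Sox14. Maf and Sox14 were also not called without replicate 3 (0.187 and 0.06).

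Foxp2, a forkhead factor, was the ventral factor called higher, at 99.7, 18.3 and 27.8 CPM in members and 20.5, 11.9 and 13.3 CPM in comparison nuclei. The groups overlapped, and replicate 1 stood far above the others. Without replicate 1 its log2 fold change of 1.38 became 0.79 and was no longer called (edgeR adjusted p 0.411).

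Hox genes, which the hindbrain and spinal cord express and the forebrain largely lacks, were present in members. Of 6 tested, Hoxd3 was called higher, at 24.9, 57.1 and 38.5 CPM against 11.9, 17.1 and 18.7 CPM (log2 fold change 1.32, edgeR adjusted p 0.000483), and was not called without replicate 2 (edgeR adjusted p 0.255). A Hoxd3 UMI was found in 23.8%, 55.6% and 37.5% of members in replicates 1, 2 and 3, in 8.85%, 22.7% and 18.1% of comparison nuclei and in 0.315%, 2.06% and 1.06% of high-Tox nuclei. After each nucleus was thinned to 4000 UMIs the Hoxd3 shares were 4.76%, 18.5% and 12.8% of members and 5.17%, 8.51% and 7.26% of comparison nuclei, so in replicate 1 members were not above the comparison.

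**Figure D2:**
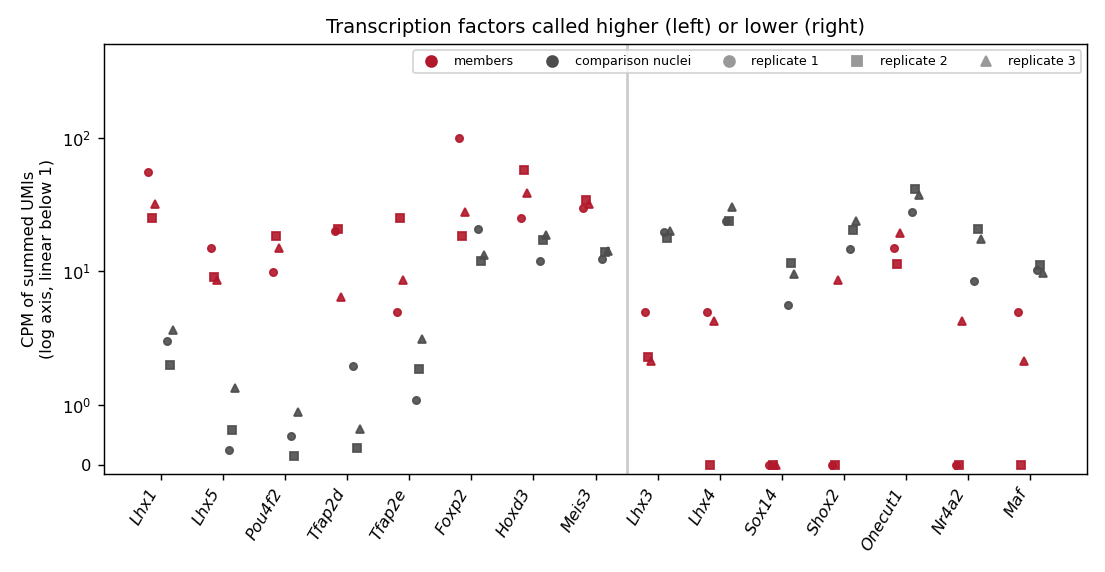
Level of called transcription factors (y axis, CPM of UMIs summed per library, log axis that is linear below 1) in members and comparison nuclei, with 1 point per library. Lhx1, Lhx5 and Pou4f2 of members lie above all comparison sums, Foxp2 overlaps, and the V2a factors Lhx3, Lhx4 and Sox14 of members lie below.

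The main transmitter gene of these nuclei was that of glutamatergic neurons. Slc17a6, the vesicular glutamate transporter of most brainstem glutamatergic neurons, stood at 64.8, 139 and 133 CPM in members and 93.5, 89.1 and 113 CPM in comparison nuclei, with overlapping groups (log2 fold change 0.24, edgeR adjusted p 0.471). At least 2 Slc17a6 UMIs were found in 35 of 88 members (39.8%, exact interval 29.5 to 50.8), in 29.9% of comparison nuclei and in 2.69% of high-Tox nuclei. At least 2 UMIs of the inhibitory genes Gad1, Gad2, Slc32a1 and Slc6a5 were found in 4 members (4.55%, 1.25 to 11.2) and 2.97% of comparison nuclei. Noradrenergic genes (Th, Dbh and Slc6a2) and serotonergic genes (Tph2, Slc6a4 and Fev) reached 2 UMIs in 0 of 88 members, against 1.50% and 0.921% of comparison nuclei. A count of 0 allows a share of nuclei with such UMIs of up to 3.41% (3 counts of 88; the exact interval reaches 4.11%), and it does not limit the share of nuclei that express these genes below detection. With 88 nuclei, shares of that size could not be told from 0. Of 5 monoamine genes 0 were called by edgeR or DESeq2, with 0 higher and 2 lower at an unadjusted p under 0.05.

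Members held markers of neurons, and at lower summed levels UMIs of glial and microglial markers, as the comparison nuclei did. All 5 neuron markers were detected in the members of each library, at a summed 2667 to 3304 CPM against 2715 to 2817 CPM in comparison nuclei. The 5 astrocyte markers summed to 4.99 to 40.7 CPM in members and 27.2 to 27.9 CPM in comparison nuclei, with Aldh1l1 at 0 in members of every library. The 5 oligodendrocyte markers summed to 29.9 to 57.8 CPM against 33.8 to 41.0 CPM, with Mag at 0 in members and Mbp, a myelin gene, at 15.0, 34.3 and 40.7 CPM against 16.3, 23.8 and 17.6 CPM. Of the 3 oligodendrocyte precursor markers, the defining genes Pdgfra and Cspg4 were at 0 in members and Vcan alone stood at 39.9, 20.6 and 30.0 CPM against 10.3, 7.4 and 10.9 CPM. The 4 microglial markers summed to 54.8 to 83.5 CPM against 55.8 to 86.5 CPM. Most of this was P2ry12, at 39.9, 45.7 and 74.9 CPM in members and 38.4, 52.5 and 69.8 CPM in comparison nuclei, and Cx3cr1, with 15 member UMIs. Csf1r had 1 member UMI, and C1qa was at 0 in members and also in comparison nuclei of replicate 3. Pericyte and fibroblast markers, of which 6 were set, summed to 4.99, 4.57 and 19.3 CPM in members and 4.5, 3.38 and 4.76 CPM in comparison nuclei, with Col1a1 and Lum at 0 in members. The part of these levels in the gene differences below was not tested.

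Col5a2, Sulf1 and Eln, which encode proteins of the extracellular matrix or an enzyme that acts on it, were among the 14 named higher genes; no list of such genes was tested. Col5a2, a chain of type V collagen, stood at 64.8, 126 and 156 CPM in members and 2.8, 1.22 and 3.42 CPM in comparison nuclei. No library overlapped, and Col5a2 had the largest fold change of the named genes (log2 5.61, SE 0.36, edgeR adjusted p 2.93e-52), with UMIs in 36 of 88 members and 1.60% of comparison nuclei. Sulf1, an enzyme that trims sulfate from heparan sulfate chains, stood at 39.9, 68.6 and 51.4 CPM against 2.8, 1.94 and 4.46 CPM (4.15, SE 0.43, edgeR adjusted p 3.58e-20). Eln, the elastin gene, stood at 19.9, 38.8 and 12.8 CPM against 0.973, 2.95 and 0.595 CPM (3.98, SE 0.61, edgeR adjusted p 4.99e-09). All 3 genes were higher in members of every library.

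Arhgap6, a GTPase-activating protein that acts on RhoA, was found in more members than any other of the 14 named higher genes, in 69 of 88 (78.4%) against 14.8% of comparison nuclei. It stood at 449, 407 and 259 CPM in members and 27.4, 19.3 and 26.6 CPM in comparison nuclei (log2 fold change 3.88, SE 0.14, edgeR adjusted p 2.13e-168). Its gene span on chromosome X contains Amelx and overlaps Hccs, both on the opposite strand. Daam2, a formin of Wnt signalling, stood at 29.9, 123 and 74.9 CPM against 3.77, 2.23 and 2.31 CPM (4.83, SE 0.40, edgeR adjusted p 1.3e-30). Neither gene overlapped between groups.

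A glycolytic enzyme and a chloride channel were also among the most increased genes. Hk2, a hexokinase, stood at 44.9, 48.0 and 25.7 CPM against 2.07, 2.3 and 0.967 CPM (log2 fold change 4.46, SE 0.51, edgeR adjusted p 3.78e-16). Cftr, the chloride channel mutated in cystic fibrosis, stood at 59.8, 38.8 and 59.9 CPM against 4.74, 3.81 and 4.69 CPM (3.53, SE 0.40, edgeR adjusted p 1.27e-16). Neither gene overlapped between groups, and they were found in 24 and 33 members.

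A pair of the named higher genes rested on few nuclei. Pyy, the gene of peptide YY, stood at 15.0, 45.7 and 40.7 CPM against 1.82, 2.8 and 2.83 CPM (log2 fold change 3.75, SE 0.49, edgeR adjusted p 2.28e-12), but its 42 UMIs came from 9 members. All 20 Pyy UMIs of replicate 2 came from 1 of 27 members. Mcub, which encodes a subunit of the mitochondrial calcium uniporter, stood at 4.99, 4.57 and 51.4 CPM against 0.973, 0.718 and 0.967 CPM. Of its 27 UMIs in members, 23 came from 1 nucleus of replicate 3 that held no AP-2 UMI. Without replicate 3 its log2 fold change of 4.39 became 2.46 (edgeR adjusted p 0.543).

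**Figure D3:**
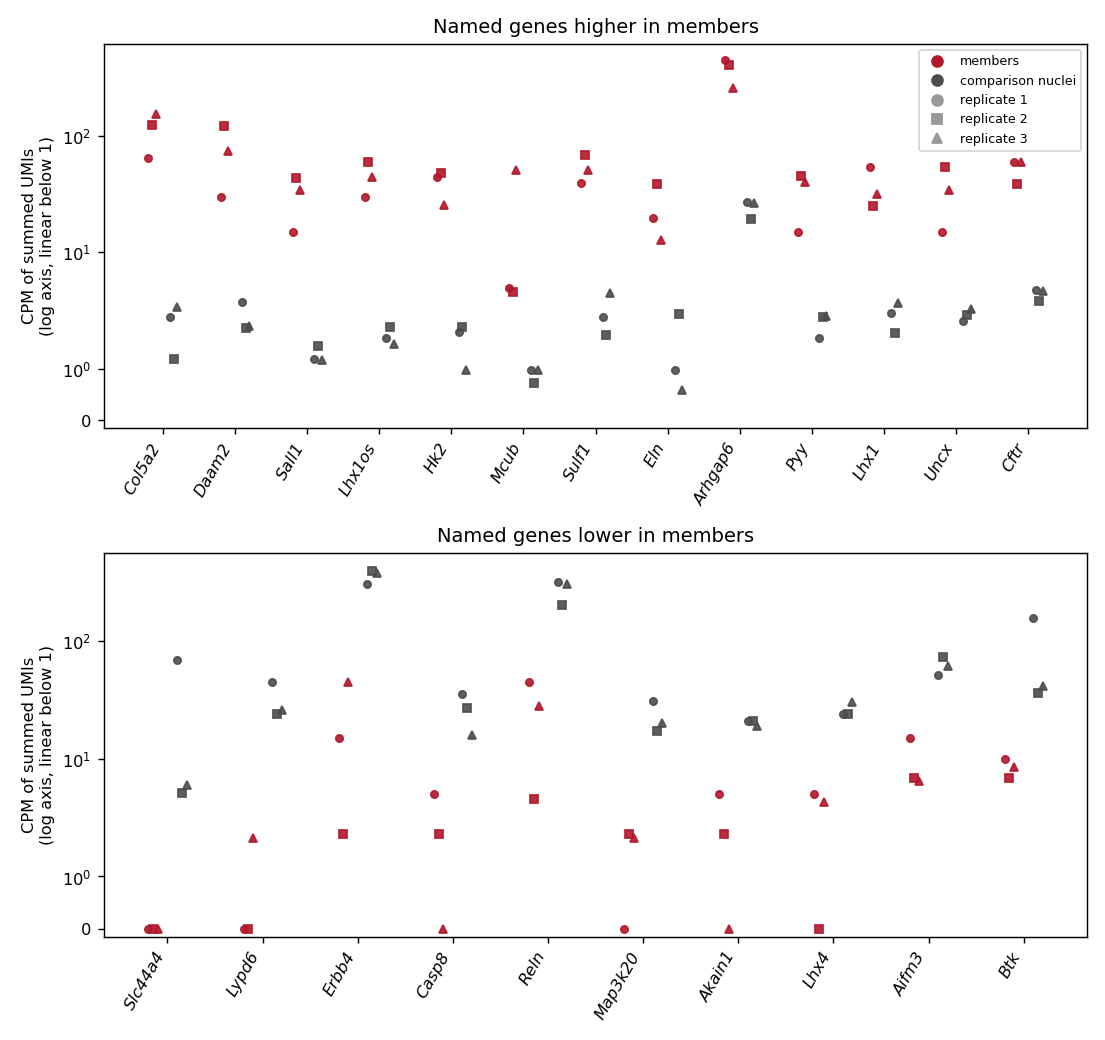
Level of named higher and lower genes (y axis, CPM of UMIs summed per library, log axis that is linear below 1) in members and comparison nuclei, with 1 point per library. No member point of the upper panel lies among the comparison points of its gene, and Mcub is high in replicate 3 alone.

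Among the 10 named lower genes, Erbb4 and Reln had the highest levels in comparison nuclei. Erbb4, the receptor of neuregulins, stood at 15.0, 2.29 and 44.9 CPM in members and 307, 397 and 377 CPM in comparison nuclei. The groups were far apart (log2 fold change -4.08, SE 0.21, edgeR adjusted p 7.2e-80), and 18 of the 25 member UMIs came from 1 nucleus without an AP-2 UMI. Reln, which encodes the secreted protein reelin, stood at 44.9, 4.57 and 27.8 CPM against 316, 202 and 304 CPM (-3.64, SE 0.22, edgeR adjusted p 1.3e-59), with UMIs in 9 of 88 members and 47.1% of comparison nuclei. Against comparison nuclei without V2a UMIs the log2 fold changes were -4.38 for Erbb4 and -2.76 for Reln.

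The remaining named lower genes had few UMIs in members. Aifm3, a mitochondrial flavoprotein, stood at 15.0, 6.86 and 6.42 CPM against 51.2, 72.9 and 61.3 CPM (log2 fold change -2.99, edgeR adjusted p 2.31e-15), and Btk, a tyrosine kinase known from B cells, at 9.97, 6.86 and 8.56 CPM against 157, 36.4 and 41.2 CPM (-2.90, edgeR adjusted p 1.23e-14). The shares of nuclei with a Btk UMI were closer, at 9.52%, 11.1% and 7.5% of members and 17.7%, 17.2% and 8.78% of comparison nuclei. Lypd6, which encodes a modulator of nicotinic receptors, had 1 member UMI and a pooled ratio of 0.0307 (counting interval 0.000776 to 0.171). Akain1, Map3k20 and Casp8 had 2 UMIs each, with ratios of 0.0894 (0.0108 to 0.324), 0.0841 (0.0102 to 0.305) and 0.073 (0.00883 to 0.264). Casp8 had a UMI in 4.76%, 3.70% and 0% of members and in 5.31%, 6.84% and 4.08% of comparison nuclei. Its 291 comparison UMIs in replicate 1 came from 54 nuclei, and a counting interval does not cover such gathering of UMIs. Slc44a4 had no member UMI and was at least 7.49-fold lower than the comparison nuclei, where it stood at 69.4, 5.1 and 6.02 CPM. Only 3.74%, 4.56% and 1.95% of comparison nuclei held a UMI of Slc44a4, and its 571 UMIs in replicate 1 came from 38 nuclei. The bound is thus one on UMIs and not on the share of nuclei. Its call rested on replicate 1, without which edgeR adjusted p was 0.0869.

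Chloride channels and transporters did not move as a group. Of 24 tested anoctamins and other chloride genes, 1 was called higher and 1 lower, beside 2.49% and 2.62% of all tested genes, with a median of 0.04. Ano4, an anoctamin like Ano1, stood at 105, 77.7 and 98.4 CPM in members and 354, 308 and 303 CPM in comparison nuclei, without overlap (log2 fold change -1.81, SE 0.16, edgeR adjusted p 1.37e-28). Ano3 lay just under the size of a call at -0.98 (edgeR adjusted p 3.82e-09), and Ano2, the closest relative of Ano1, had 8 member UMIs and was not called (1.85, edgeR adjusted p 0.188). Slc12a7, a potassium-chloride cotransporter, was called higher on 8 UMIs (3.15, edgeR adjusted p 0.0174) and lost the call without any of the 3 libraries (edgeR adjusted p 0.14, 0.156 and 0.0803 without replicates 1, 2 and 3).

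Receptors of glutamate were lower in members where called. Of 24 tested, 5 were called lower and 0 higher by edgeR (10 and 4 at an unadjusted p under 0.05, and 5 and 0 by DESeq2), with a median of -0.27. The median over all tested genes was -0.04, with 2.62% called lower and 2.49% higher. Grik1, a kainate receptor subunit, stood at 110, 45.7 and 81.3 CPM in members and 487, 422 and 539 CPM in comparison nuclei (log2 fold change -2.75, SE 0.16, edgeR adjusted p 3.51e-61). Grik3, a second kainate subunit gene, stood at 24.9, 4.57 and 12.8 CPM against 69.4, 51.5 and 52.5 CPM (-2.25, edgeR adjusted p 3.5e-10). Gria1, Grid1 and Grin3a, which encode an AMPA, a delta and an NMDA type subunit, had log2 fold changes of -1.45, -1.43 and -1.24. None of the 5 overlapped between groups. Against comparison nuclei without V2a UMIs the change of Grin3a was -0.89, under the size of a call.

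Of 19 GABA and glycine receptor genes, 2 were called higher and 0 lower, beside 2.49% and 2.62% of all tested genes. Gabrg1 stood at 24.9, 54.8 and 77.0 CPM against 14.3, 15.4 and 20.7 CPM (log2 fold change 1.67, SE 0.28, edgeR adjusted p 1.01e-07), and Glra2 at 99.7, 86.8 and 79.2 CPM against 33.9, 35.8 and 44.6 CPM (1.14, edgeR adjusted p 5.13e-07). Neither overlapped between groups. Glra2 fell to 0.97 without replicate 1 and to 0.69 against comparison nuclei without V2a UMIs.

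Of 35 receptors of monoamines, acetylcholine and peptides, 1 was called higher and 5 lower, with a median of -0.29. Calls over all tested genes were 2.49% higher and 2.62% lower. Htr7, a serotonin receptor that couples to Gs, stood at 219, 151 and 107 CPM in members and 42.2, 39.6 and 44.8 CPM in comparison nuclei (log2 fold change 1.79, SE 0.17, edgeR adjusted p 2.01e-24), with UMIs in 58 of 88 members and 26.5% of comparison nuclei. Htr4, a further serotonin receptor, was lower, at 9.97, 18.3 and 25.7 CPM against 56.9, 55.6 and 59.1 CPM (-1.57, edgeR adjusted p 1.27e-06). The members of all libraries were thus above the comparison for Htr7 and below it for Htr4. Drd2, a dopamine receptor, had 1 member UMI (pooled ratio 0.0536, counting interval 0.00135 to 0.300). The adrenergic receptors Adra1a and Adra1b (-1.25 and -1.35) and the orexin receptor Hcrtr2 (-1.07) lost their calls without replicate 2 (edgeR adjusted p 0.25, 0.558 and 0.497), and Adra1b also without replicate 3 (0.302).

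Calls among sodium, potassium, calcium and HCN channel genes are given beside 2.49% called higher and 2.62% called lower over all tested genes. Of 11 sodium channel genes 0 were called by edgeR or DESeq2, with 4 higher and 3 lower at an unadjusted p under 0.05 and a median of 0.16. Of 35 potassium channels 1 was called higher and 2 lower, and of 20 calcium and HCN channels 2 were called higher. Cacna1g, a T-type calcium channel, stood at 59.8, 50.3 and 53.5 CPM against 15.6, 20.8 and 15.6 CPM (log2 fold change 1.60, SE 0.28, edgeR adjusted p 6.23e-07), and Cacna1e, an R-type channel, at 598, 592 and 484 CPM against 297, 244 and 225 CPM (1.11, SE 0.12, edgeR adjusted p 3.58e-19). Both were higher in members of every library without overlap. Among potassium channels Kcnn3, a calcium-activated channel, was higher (1.24, edgeR adjusted p 2.1e-09) and Kcnh1 and Kcnj6 were lower (-2.18 and -1.26). Without replicate 2 the fold changes of Kcnn3 and Kcnj6 were 0.90 and -0.93, under the size of a call. Of 16 genes of large projection neurons 1, Calb2, was called higher, with overlapping groups and no call without replicate 1 or 2 (edgeR adjusted p 0.285 and 0.601).

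Calls among guidance ligands and receptors ran in both directions, and those among classical cadherins were all lower. Of 29 guidance ligands 4 were called higher and 6 lower, beside 2.49% and 2.62% of all tested genes, with a median of -0.42. Sema3a, a secreted semaphorin that repels axons, stood at 259, 261 and 216 CPM in members and 44.1, 26.9 and 39.1 CPM in comparison nuclei (log2 fold change 2.76, SE 0.15, edgeR adjusted p 1.44e-74). Ntng1, a membrane-anchored netrin relative, stood at 1506, 1590 and 1680 CPM against 359, 332 and 409 CPM (2.10, SE 0.11, edgeR adjusted p 1.66e-74) and had UMIs in 85 of 88 members. Both were far apart between groups. Sema3e was higher by 1.70 and Sema6a by 1.04, and Sema6a was under the size of a call without replicate 1 or 2 (0.94 and 0.99).

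The guidance ligands called lower were Sema5b, Sema5a, Sema6d, Slit2, Slit3 and Sema3c, with log2 fold changes from -2.79 for Sema5b to -1.28 for Sema3c. Slit2, a secreted ligand of Robo receptors, stood at 120, 89.1 and 165 CPM in members and 457, 355 and 441 CPM in comparison nuclei (-1.75, SE 0.15, edgeR adjusted p 9.39e-31). Sema6d stood at 209, 283 and 184 CPM against 783, 696 and 831 CPM (-1.79, SE 0.13, edgeR adjusted p 9.52e-40). None of the 6 overlapped between groups. Slit3 changed by -0.77 against comparison nuclei that met the Meis1 limit, and Sema3c by -0.83 against those without V2a UMIs.

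Of 32 guidance receptors 1 was called higher and 3 lower, beside 2.49% and 2.62% of all tested genes. Unc5d, a netrin receptor of the Unc5 family, stood at 1251, 1650 and 1348 CPM in members and 481, 301 and 416 CPM in comparison nuclei, without overlap (log2 fold change 1.83, SE 0.11, edgeR adjusted p 1.89e-56). Dscaml1, Plxna2 and Epha3 were lower (-1.87, -1.15 and -1.05). Epha3 overlapped between groups and was not called without replicate 2 or 3 (edgeR adjusted p 0.405 and 0.27), Plxna2 fell under the size of a call without replicate 2 (-0.99), and Dscaml1 was not called against comparison nuclei that met the Meis1 limit (edgeR adjusted p 0.577).

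Of 14 classical cadherins, which hold cells together through calcium-dependent adhesion, 5 were called lower and 0 higher by edgeR (9 and 2 at an unadjusted p under 0.05, and 3 and 0 by DESeq2), with a median of -0.56. Over all tested genes 2.62% were called lower and 2.49% higher, with a median of -0.04. Cdh13 stood at 184, 169 and 135 CPM in members and 678, 620 and 674 CPM in comparison nuclei (log2 fold change -2.06, SE 0.14, edgeR adjusted p 2.82e-47), and Cdh8 at 135, 34.3 and 118 CPM against 337, 267 and 368 CPM (-1.91, SE 0.16, edgeR adjusted p 7.73e-31). The groups did not overlap for either. Cdh7 and Cdh22 (-1.32 and -1.35) were not called without replicate 2 (-0.995 for Cdh7, edgeR adjusted p 0.0944 for Cdh22). Cdh24 had 3 member UMIs (pooled ratio 0.229, counting interval 0.0471 to 0.675) and lost its call without any library (edgeR adjusted p 0.122, 0.438 and 0.122).

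Of 28 growth factor receptors 3 were called higher and 3 lower, and of 18 neuropeptides 2 and 1. Calls over all tested genes were 2.49% higher and 2.62% lower. Of 9 markers of primary sensory neurons, Isl1, Runx3 and Tlx3 were at 0 in members of every library. Tgfbr1, a receptor of transforming growth factor beta, was higher by 1.39 on the log2 scale and was not called without replicate 2 (edgeR adjusted p 0.377). Egfr, at 4.99, 9.14 and 51.4 CPM against 21.8, 11.1 and 5.43 CPM, was above the comparison in replicate 3 alone, and its change of 1.23 turned to -0.95 without that replicate (edgeR adjusted p 0.596). Beside Erbb4, Met and Gfra2 were lower (-2.48 and -1.53) and lost their calls without replicate 2 (edgeR adjusted p 0.226 and 0.665), Gfra2 also without replicate 1 or 3 (0.0849 and 0.0678). Of the neuropeptides beside Pyy, the enkephalin gene Penk was higher (1.80) but not without replicate 2 or 3 (edgeR adjusted p 0.562 and 0.0767), and Adcyap1 was lower on 3 UMIs (pooled ratio 0.218, counting interval 0.0448 to 0.641) but not without replicate 2 or 3 (0.281 and 0.383).

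**Figure D4:**
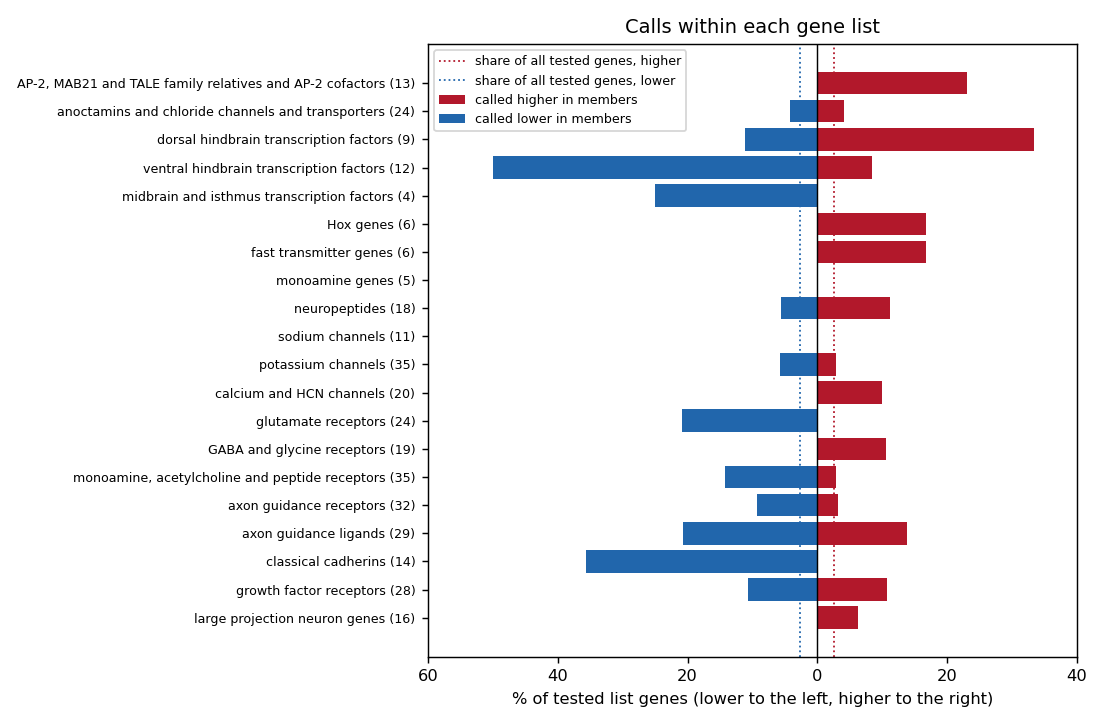
Share of the tested genes of each list (number in brackets) that was called higher (to the right) or lower (to the left) in members, in percent, with dotted lines at 2.49% and 2.62% for all tested genes. The lists hold between 4 and 35 tested genes, so 1 gene can be a large share, and ventral hindbrain factors have the largest share called lower.

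Members differed among themselves in the named genes, which were chosen for their difference between the groups, so what follows is a description. Summed over the 14 named higher genes, the level was 877, 1124 and 905 CPM in members of replicates 1, 2 and 3 and 59.2, 48.6 and 59.4 CPM in comparison nuclei. High-Tox nuclei stood at 12.3, 10.1 and 9.11 CPM. At least 3 of the 14 genes had a UMI in 67 of 88 members (76.1%) and in 81 of 2933 comparison nuclei (2.76%), and 7 members held none of them. With nuclei thinned to 4000 UMIs, at least 2 of the genes were found in 66.7%, 66.7% and 71.8% of members and in 3.33%, 2.97% and 2.76% of comparison nuclei. This left out 1 shallower member and 205, 49 and 39 shallower comparison nuclei.

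The level of these genes went with the number of selecting UMIs. Among nuclei that met the Meis1 and Tox limits, the 14 genes summed to 47.2 CPM in 890 nuclei with 0 selecting UMIs, 107 CPM in 122 nuclei with 1, 333 CPM in 33 with 2, 441 CPM in 15 with 3, 683 CPM in 29 with 4 or 5 and 1263 CPM in 27 with 6 or more. The 10 named lower genes summed to 891, 757, 310, 230, 61.1 and 36.8 CPM in the same order. All 27 nuclei with 6 or more selecting UMIs held at least 3 of the 14 genes. Median depth also went with the number of selecting UMIs, from 9048 UMIs at 0 to 15761 at 6 or more, while CPM is a share of each sum; the part of depth was not tested. Bins of 2 to 5 UMIs held 2 to 15 nuclei per library and varied, with 928, 128 and 661 CPM for 3 UMIs in replicates 1, 2 and 3.

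**Figure D5:**
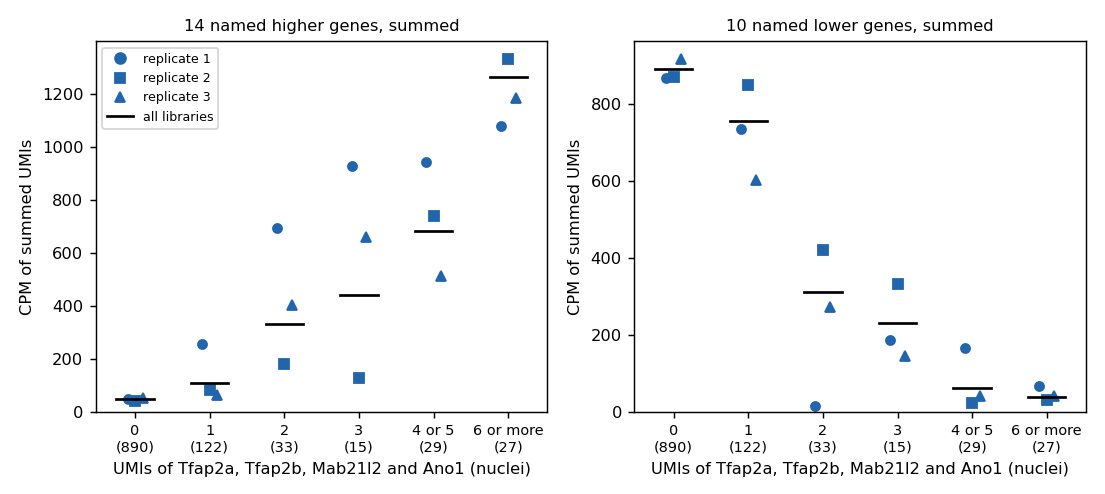
Summed level of the 14 named higher genes (left) and the 10 named lower genes (right) in CPM, by the number of UMIs of the 4 selecting genes in nuclei that met the Meis1 and Tox limits (number of nuclei in brackets). Points are libraries and bars all libraries; the left values go from 47.2 to 1263 CPM and the right values from 891 to 36.8 CPM.

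The 78 members with an AP-2 UMI and the 10 without differed in these levels. The 14 higher genes summed to 834 CPM in the 24 members with AP-2 alone, 1171 CPM in the 54 with AP-2 and Mab21l2 or Ano1, and 260 CPM in the 10 without AP-2, where 23 of 35 UMIs were the Mcub UMIs of 1 nucleus. At least 3 of the 14 genes were found in 16 of 24, 50 of 54 and 1 of 10 members of these subsets. The 10 lower genes summed to 20.8, 50.6 and 260 CPM. Nuclei without AP-2 numbered 2, 1 and 7 in replicates 1, 2 and 3, too few per library for a test.

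Single genes showed the same split. Sema3a stood at 273 CPM in members with AP-2 and 14.9 CPM in those without, Unc5d at 1581 and 505 CPM, Ntng1 at 1726 and 795 CPM and Htr7 at 160 and 37.2 CPM. Lhx1, Lhx5, Pou4f2, Tfap2d, Tfap2e and Col5a2 had no UMI in the 10 members without AP-2, where 1 UMI is 7.43 CPM. In members with AP-2, Lhx5 stood at 11.3, Pou4f2 at 17.5, Tfap2d at 16.5 and Tfap2e at 16.5 CPM. For these genes the lack of UMIs in 10 nuclei cannot be told from a similar level. Grik1 stood at 46.3 and 260 CPM, Ano4 at 61.8 and 305 CPM and Cdh13 at 136 and 312 CPM. Members without AP-2 thus differed from the others in the direction of the comparison nuclei, but only Ano4 reached the range of the comparison sums. Slc17a6 stood at 124 and 119 CPM. In a fit of the 78 members with AP-2 UMIs alone, 410 genes were called higher and 490 lower.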

How the data were processed

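For 3 libraries the authors deposited a matrix of UMI counts, genes by barcodes, from Cell Ranger. Per the file headers the version was 6.1.1, and per the submitters' processing notes 7.0.1 with mm10; intron and strand use is not given in the sources used here. Gene names came from the files, which hold 32285 genes, and 32235 of the IDs were found in GENCODE M21. Nuclei were selected by the rule in the text, doublets kept. CPM are UMIs per 1000000 UMIs of the sum. Counts were summed per library and group (6 sums, 2 residual degrees of freedom) and fitted with edgeR 4.0.16 (R 4.3.3): TMM, filterByExpr, library block. The library numbers pair the sums because both groups came from the same library. The 7 genes of the rule were fitted but never tested or counted. The SE is the log2 fold change over the square root of the F statistic. Named genes were called, moved the same way in 3 of 3 libraries, had a mean of at least 20 CPM in the higher group and were neither mitochondrial nor named by clone: the 14 largest and 10 smallest fold changes, plus list genes. Some genes that met these rules, 1 of the 14 among them, are not reported here by name but stay in counts and sums. Members, lists and rules were chosen with earlier results of these data known. On simulated data 98% to 100% of 4-fold and 8-fold changes were recovered, with 4 false calls among 14437 unchanged genes. The changed genes stood at 20 CPM or more in comparison nuclei, above most of the named higher genes. Sums were drawn with the same variation for all genes, without library differences in gene shares or UMIs gathered in single nuclei. The rates therefore do not cover such cases or changed genes at lower levels. DESeq2 1.42.0 and Scrublet (Scanpy 1.11.5, expected rate 6%) were alternatives. Libraries held 2710, 11094 and 3713 barcodes and 27435221, 74287112 and 60490064 UMIs.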

Additional observations from a re-analysis of the deposited data

How the results depend on the processing

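Against 363 genes higher and 381 lower, DESeq2 called 272 and 174, the fit with no replicate block 280 and 244, and the comparison with nuclei that met the Meis1 limit 299 and 253. Leaving out 1 library gave 196 to 340 higher and 242 to 366 lower genes, lowest without replicate 2 in both directions. RLE size factors, no filter on low counts, Scrublet removal, comparison nuclei with 0 selecting UMIs, members with at least 3 UMIs and 300 CPM, and nuclei with at least 10000 UMIs kept both counts within 1.5 times. So did 3 alternatives chosen after seeing the data, which selected without Mab21l2, kept members with an AP-2 UMI, or kept comparison nuclei with 0 V2a UMIs. The cause of these differences was not tested. The share of members, 0.959%, was 0.567% with at least 3 UMIs and 300 CPM and 0.879% to 1.05% without 1 library. Of 88 genes followed over 15 settings, in 1299 pairs of gene and setting, 1140 kept their call, 157 lost it and 2 reversed: Egfr, at -0.95 without replicate 3 (1.85 without replicate 1) and -0.49 with the stricter members. In all settings that tested them, 45 genes kept their call. Genes that the filter of a setting removed, such as Sox14 against comparison nuclei with 0 V2a UMIs, have no value there. The fits of members with against without AP-2, and their alternatives, were not run, since each library held fewer than 10 members without AP-2. The 88 members carry few UMIs, so a gene at a few CPM in members rests on single counts.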

Other observations

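Some nuclei met the limit on the selecting genes but missed another limit. There were 98 with low Tox and Meis1 under the limit, 81 of them with no Meis1 UMI, and 65 of the 98 were in the comparison group through Meis2. The 14 named higher genes summed to 363 CPM in these nuclei (242, 414 and 376 CPM in replicates 1, 2 and 3), against 987 CPM in members and 45.6 CPM in the 2868 comparison nuclei under the limit on the selecting genes. The sum was 536 CPM in the 65 (326, 674 and 542 CPM) and 68.7 CPM in the 33 outside the comparison group (71.1, 65.3 and 70.7 CPM). At least 3 of the genes were found in 28 of the 65 and 1 of the 33. A further 13 nuclei met the limit on the selecting genes with high Tox, 11 of them in replicate 3, and their sum was 179 CPM. Genes that were chosen for their difference between members and comparison nuclei give these values, so they are a description with no test.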
